A study of Mus musculus with 12 samples.

Results

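The livers of 3 mice labelled AHR KO were compared with the livers of 3 mice labelled AHR Flox, across every gene of the deposited table. These 6 libraries, 1 per mouse, were chosen by their labels out of 12 in all. The other 6, from the groups ARNT Flox and ARNT KO, were left out of the main fit. They appear as reference levels and in 1 alternative fit of all 12 libraries. All 12 animals were adult C57BL/6 females of 6 months that had spent 13 weeks on a high-fat diet. AHR Flox names a line whose Ahr gene carries recombination sites, and AHR KO the line with hepatic loss of that gene. ARNT Flox and ARNT KO are the same pair for Arnt. The recombinase line, the promoter that drives it, the deleted part of each gene and whether the compared mice were littermates are not stated in any source used here. Nothing in the labels ties a mouse of one group to a mouse of another.

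The aryl hydrocarbon receptor (AHR) is a ligand-activated transcription factor that waits in the cytoplasm in a chaperone complex. On binding a ligand it enters the nucleus, pairs with ARNT and binds DNA at a short element with the core GCGTG. In the liver it is best known for inducing the cytochromes Cyp1a1, Cyp1a2 and Cyp1b1, and its own repressors Ahrr and Tiparp. The comparison asks which liver transcripts differ after hepatic AHR loss in females on this diet.

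Libraries held 25441488 to 33255004 counts each, and levels are given as CPM, counts scaled to a common library size. A gene with 0 counts could still lie at up to 3 counts, or 0.0900 to 0.119 CPM. That limit and the intervals below reflect counting error alone, as reads were not collapsed by molecular identifiers. A principal component analysis of the log2 levels put 34.6% of the variance on the first axis, which separated the groups, with AHR Flox between −25.9 and −10.3 and AHR KO between 14.8 and 19.5. The next axis, with 21.3%, set AHR KO replicate 3 apart at −27.2. Hepatocyte receptors were present in every liver (Asgr1, a subunit of the asialoglycoprotein receptor, at 527 to 785 CPM). The female label was met by Xist at 831 to 1146 CPM and by 0 counts of 4 Y-linked genes in all 6 livers.

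The gene named in the labels was read first. Ahr (chromosome 12, 35497979 to 35534989, mm10) stood at 52.2, 76.0 and 69.6 CPM in the AHR Flox livers and at 81.3, 91.0 and 76.8 CPM in those labelled AHR KO. All 3 of the latter lay above all 3 of the former, but the difference did not pass (log2 change 0.33 ± 0.14 SE, edgeR adjusted p = 0.351). The counts cover the whole gene. They do not check the label, because a transcript that lacks part of its exons can still be counted, and the deleted part is not stated. Arnt, the partner gene on chromosome 3, overlapped between the groups, at 49.7, 61.7 and 52.2 CPM against 63.1, 65.3 and 52.8 CPM (log2 change 0.15 ± 0.11, adjusted p = 0.603). None of the 15 tested members of the AHR complex, its chaperones and its cofactors was called by edgeR or by DESeq2. At an unadjusted p under 0.05 stood 1 higher and 1 lower, and the list had a median log2 change of −0.004. The lower one was Ncoa1, a nuclear receptor coactivator, at −0.30 ± 0.07 (adjusted p = 0.188).

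Of 13457 genes tested, edgeR called 16 at an adjusted p under 0.05, 8 higher and 8 lower in AHR KO, or 0.119% of those tested and 0.0594% in each direction. DESeq2 called 323 genes (2.4%), 193 higher (1.43%) and 130 lower (0.966%), among them all 16 of the edgeR calls, and limma-voom called 14 (0.104%). At an unadjusted p under 0.05 stood 1884 genes (14%), of which 998 were higher (7.42%) and 886 lower (6.58%). The median change over all genes was −0.0016, and 187 genes (1.39%) differed by more than 1 log2 unit.

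**Figure D1:**
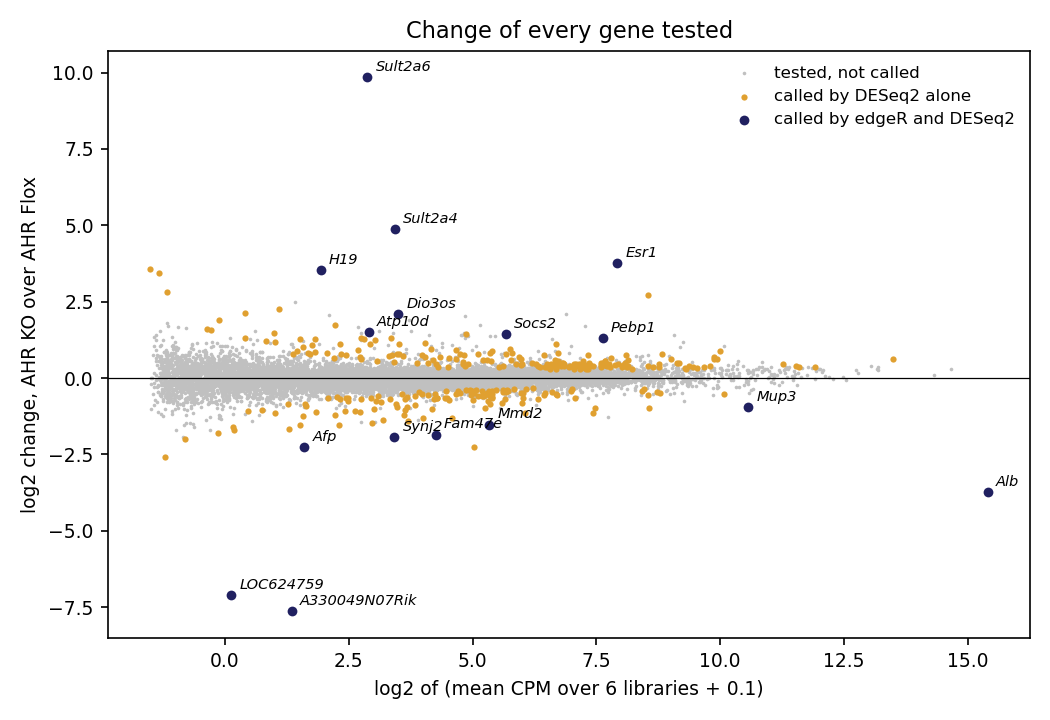
Log2 change of each of the 13457 genes tested (AHR KO over AHR Flox) against the log2 of its mean CPM over 6 libraries plus 0.1. The 16 genes called by edgeR are labelled. Alb sits at the far right at −3.74 and Esr1 at 3.77, while most genes that DESeq2 alone called lie within 1 log2 unit of 0.

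Alb and Esr1 moved most among abundant transcripts, in opposite directions and with little spread between animals. Alb encodes serum albumin, the main protein that hepatocytes secrete (chromosome 5, 90460870 to 90476602). Alb stood at 75881, 86108 and 81074 CPM in AHR Flox and at 6832, 5269 and 6076 CPM in AHR KO. Alb therefore made up 7.69% to 8.44% of all counts in AHR Flox livers and 0.547% to 0.667% in AHR KO livers, with a wide gap between the groups. Alb fell 13.4-fold (log2 change −3.74 ± 0.24, adjusted p = 0.00169). Afp, the fetal counterpart of albumin and its downstream neighbour (90490714 to 90508907), stood at 4.84, 4.62 and 5.05 CPM against 1.07, 1.06 and 0.900 CPM. Afp fell 4.8-fold (−2.26 ± 0.16, adjusted p = 0.00205). Of the other members on the albumin list, both carrier proteins of the blood, neither was called. Gc, the vitamin D binding protein, was at 0.17 ± 0.13 (adjusted p = 0.598) and Afm, afamin, at 0.06 ± 0.08 (adjusted p = 0.758). A further family member 0.08 Mb from Alb, 5830473C10Rik (now Albfm1), was not on the list and is named after its values were seen. 5830473C10Rik stood at 48.4, 38.4 and 43.9 CPM against 35.2, 35.4 and 31.2 CPM, without overlap (−0.36 ± 0.10, adjusted p = 0.216).

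Esr1 encodes estrogen receptor alpha (chromosome 10, 4611989 to 5005633). Esr1 stood at 33.7, 35.7 and 29.7 CPM in AHR Flox and at 454, 454 and 448 CPM in AHR KO, where the livers hardly differed from each other. Esr1 rose 13.7-fold (3.77 ± 0.10, adjusted p = 6.02e-06), with the smallest p of all genes tested. The table gives 1 count per gene, so the part of Esr1 that the reads came from was not analysed here. Of 11 tested genes on a list of estrogen receptor genes and targets, Esr1 was the only one called by edgeR, and the list median was 0.107, or 0.013 without AHR KO replicate 3. Cyp17a1, a steroid hydroxylase that is female-biased in mouse liver, stood at 190, 269 and 253 CPM against 112, 170 and 77.7 CPM (−0.99 ± 0.27, adjusted p = 0.199). Igf1, the growth factor that the liver secretes, stood at 701, 604 and 663 CPM against 835, 799 and 830 CPM (0.32 ± 0.10, adjusted p = 0.228). Both passed in DESeq2 alone.

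**Figure D2:**
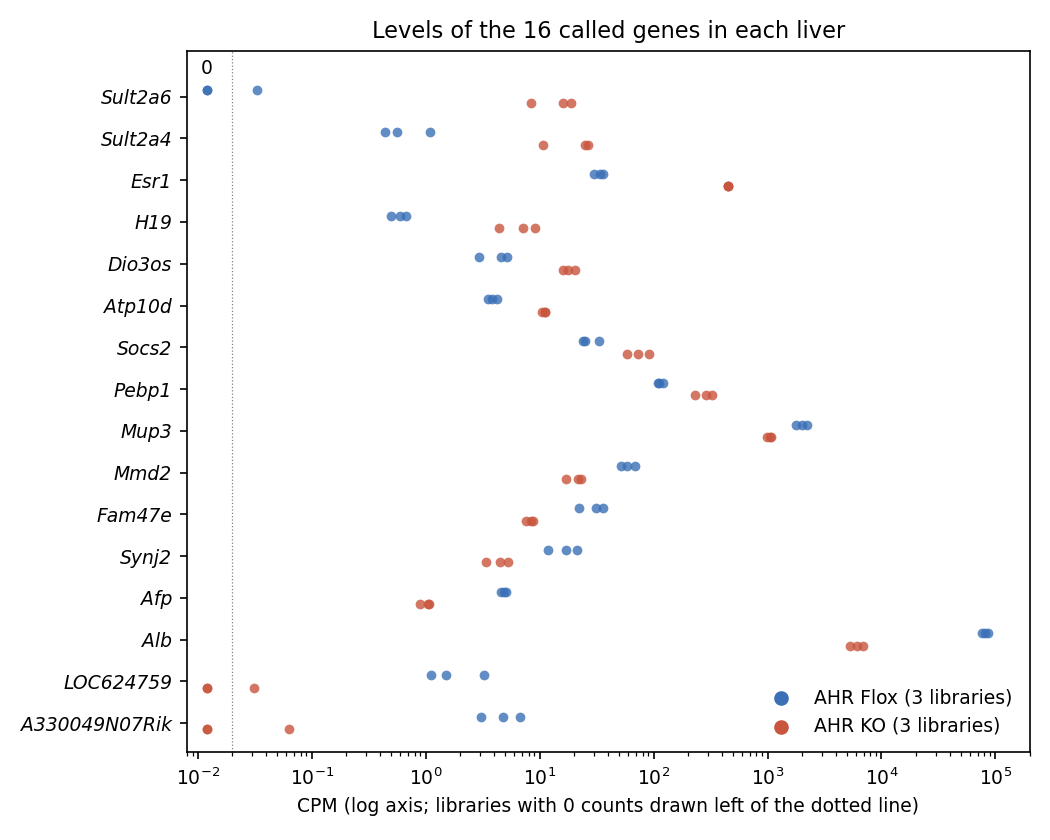
CPM of the 16 called genes in each of the 6 livers, on a log axis, with AHR Flox in blue and AHR KO in red. No called gene has overlapping groups, and the AHR Flox points of Sult2a6 and the AHR KO points of A330049N07Rik and LOC624759 lie at or next to 0.

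Transcripts of a pair of sulfotransferases, almost silent in the controls, appeared in all 3 AHR KO livers. Both belong to the Sult2a family on chromosome 7, enzymes that sulfate hydroxysteroids and bile acids and are typical of female mouse liver. Sult2a6 (14222403 to 14254870) gave 0, 1 and 0 counts in AHR Flox and 511, 608 and 280 counts in AHR KO (0.0330 CPM at most against 16, 18.9 and 8.40 CPM). The ratio of summed counts, scaled for library size, was 1232, with an exact 95% interval of 221 to 48702 that covers counting error only. Sult2a4 (13909677 to 13989591) stood at 0.560, 1.09 and 0.438 CPM against 25, 26.4 and 10.8 CPM. Sult2a4 rose 29.8-fold (4.87 ± 0.45, adjusted p = 0.00758). In both genes AHR KO replicate 3 held less than the other AHR KO livers and more than any control.

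Copies of the family share sequence, which bears on how reads could be assigned. Of the 50-base words in the annotated transcripts of Sult2a6, 6.63% also occur in another Sult2a gene, against 25.5% for Sult2a4, 62.1% for Sult2a2 and 33.2% for Sult2a1. The counts of Sult2a4 and Sult2a2 are therefore less certain than those of Sult2a6. Their promoters resemble each other as well. These are shown from 250 bases before to 50 after the RefSeq start (GRCm38.p6), since the transcripts moved together. Any AHR core GCGTG, on either strand, would be in capitals, and neither holds one.
Sult2a4 (chr7:13989539-13989838, minus strand): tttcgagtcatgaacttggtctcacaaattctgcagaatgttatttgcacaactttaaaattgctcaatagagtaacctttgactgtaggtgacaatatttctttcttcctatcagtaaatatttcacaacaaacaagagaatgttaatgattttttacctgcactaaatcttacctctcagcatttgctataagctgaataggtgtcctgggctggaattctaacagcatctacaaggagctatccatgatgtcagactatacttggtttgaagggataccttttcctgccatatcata
Sult2a6 (chr7:14254821-14255120, minus strand): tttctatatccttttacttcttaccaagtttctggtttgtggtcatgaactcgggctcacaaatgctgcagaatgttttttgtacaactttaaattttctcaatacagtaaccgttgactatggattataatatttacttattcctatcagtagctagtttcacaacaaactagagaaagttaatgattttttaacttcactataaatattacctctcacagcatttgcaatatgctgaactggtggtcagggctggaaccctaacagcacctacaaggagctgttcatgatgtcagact
Of 260 positions that could be aligned, 221 were identical (85.0%). Of the other tested sulfotransferase genes, none was called. Sult2a2 stood at 247, 384 and 270.5 CPM against 156, 151 and 65.0 CPM (−1.28 ± 0.32, adjusted p = 0.189). Sult2a7 stood at 5.83, 3.16 and 7.56 CPM against 38.5, 12.1 and 11.3 CPM (1.91 ± 0.52, adjusted p = 0.199). Over the 18 tested genes of the list the median was 0.253 (0.150 without AHR Flox replicate 1 and 0.390 without AHR KO replicate 3), with 4 higher and 1 lower at an unadjusted p under 0.05.

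Pebp1, which encodes the Raf kinase inhibitor protein (chromosome 5, 117282651 to 117287564), stood at 108, 112 and 122 CPM in AHR Flox and at 327, 229 and 287 CPM in AHR KO. Pebp1 rose 2.47-fold (1.30 ± 0.14, adjusted p = 0.0139). Its promoter is shown because it held the core GCGTG 4 times, in capitals, counted on both strands (CACGC is the core on the opposite strand).
Pebp1 (chr5:117287515-117287814, minus strand): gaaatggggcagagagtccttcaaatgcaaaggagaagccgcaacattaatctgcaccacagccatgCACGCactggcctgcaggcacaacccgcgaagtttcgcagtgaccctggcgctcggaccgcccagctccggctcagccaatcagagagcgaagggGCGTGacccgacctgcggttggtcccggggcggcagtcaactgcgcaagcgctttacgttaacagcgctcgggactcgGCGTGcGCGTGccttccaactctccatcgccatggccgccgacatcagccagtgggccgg
Atp10d (chromosome 5, 72203329 to 72298771) belongs to the phospholipid flippases and is annotated in RefSeq as a transcribed pseudogene. Atp10d stood at 3.53, 3.82 and 4.22 CPM against 11.2, 10.4 and 11.1 CPM, and rose 2.83-fold (1.5 ± 0.12, adjusted p = 0.00383). Socs2, a feedback inhibitor of growth hormone signalling, stood at 32.9, 25 and 24.1 CPM against 91.1, 58.8 and 73.5 CPM. Socs2 rose 2.72-fold (1.44 ± 0.18, adjusted p = 0.0448).

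A pair of noncoding RNAs from imprinted regions were also higher. H19, transcribed from the maternal allele next to Igf2, stood at 0.593, 0.494 and 0.676 CPM against 4.36, 9.04 and 7.17 CPM (3.54 ± 0.32, adjusted p = 0.00758). Dio3os, which lies opposite the deiodinase gene Dio3, stood at 4.58, 5.18 and 2.94 CPM against 20.5, 16.1 and 17.9 CPM (2.09 ± 0.20, adjusted p = 0.00818). Whether counting used strand is not given, so reads of Dio3os and of a gene on the other strand cannot be told apart. Dio3, named after its values were seen, averaged 0.336 CPM in AHR Flox and 1.29 CPM in AHR KO. It missed the threshold in edgeR (adjusted p = 0.188) and passed in DESeq2 (log2 change 1.91, adjusted p = 0.0185). Igf2 stood at 0.494, 0.231 and 0.278 CPM against 0.784, 1.21 and 1.08 CPM. It did not pass in edgeR (1.59 ± 0.34, adjusted p = 0.164) and passed in DESeq2 (adjusted p = 0.0373). Meg3, an imprinted RNA of the Dio3 region, stood at 2.17, 2.51 and 2.23 CPM against 1.22, 1.02 and 1.74 CPM (−0.79 ± 0.23, adjusted p = 0.216).

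Among the genes that fell, Mmd2, a membrane protein gene of the progestin and adipoQ receptor family, stood at 68.7, 52.2 and 58.0 CPM against 23.2, 21.7 and 17.2 CPM (−1.53 ± 0.14, adjusted p = 0.00758). Fam47e stood at 22.3, 35.7 and 31.3 CPM against 7.53, 8.38 and 8.82 CPM (−1.85 ± 0.17, adjusted p = 0.00758). Synj2, an inositol phosphatase gene, stood at 21.4, 11.9 and 17.1 CPM against 4.45, 3.38 and 5.31 CPM (−1.93 ± 0.24, adjusted p = 0.0448). Mup3, a major urinary protein gene and the most abundant of these, stood at 1783, 2021 and 2221 CPM against 1059, 994 and 1072 CPM (−0.95 ± 0.12, adjusted p = 0.0476). Of the 50-base words of Mup3, 12.6% occur in other Mup genes, so its count is largely its own. Unnamed loci made up the rest. A330049N07Rik, a long noncoding RNA of chromosome 10, gave 146, 203 and 77 counts in AHR Flox and 2, 0 and 0 in AHR KO, a ratio of 242 (exact 95% interval 66.5 to 2003). LOC624759, a locus without a position in the annotation used and named after its values were seen, gave 46, 99 and 28 counts against 1, 0 and 0, a ratio of 196 (34.8 to 7803).

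Leaving out 1 library often ended a call. Esr1, Afp, Sult2a6, Atp10d and A330049N07Rik were called under all 16 alternatives tried, and every called gene kept its direction under each. Alb missed only when all 12 libraries were fitted together (adjusted p = 0.0629). Without AHR Flox replicate 3, 9 of the 16 calls were lost, at adjusted p of 0.0557 to 0.216. They were Pebp1, Sult2a4, H19, Socs2, Synj2, Fam47e, Mmd2, Mup3 and LOC624759. Without AHR Flox replicate 1, 8 were lost, at 0.0516 to 0.0804: Pebp1, Sult2a4, H19, Dio3os, Socs2, Synj2, Mup3 and LOC624759. Without AHR KO replicate 3, 5 were lost, at 0.0636 to 0.128: Pebp1, Socs2, Synj2, Mup3 and LOC624759. Without AHR KO replicate 1, 4 were lost, at 0.0693 to 0.174: Socs2, Synj2, Mup3 and LOC624759. Without AHR Flox replicate 2 the calls of Pebp1, Socs2 and Mup3 were lost, at 0.0702 to 0.135, and without AHR KO replicate 2 those of Synj2, Mup3 and LOC624759, at 0.0974 to 0.101.

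Known AHR target genes held no edgeR call. Of 20 on the list 16 were tested, and edgeR called 0 of them. As edgeR called 0.119% of all genes tested, a list of this size says little there. DESeq2 called 1 higher and 1 lower, against 1.43% higher and 0.966% lower of all genes tested. At an unadjusted p under 0.05 stood 1 higher and 3 lower, against 7.42% and 6.58% of all. The list median was −0.091, or −0.173 without AHR Flox replicate 2 and −0.015 without AHR Flox replicate 3. The Cyp1 genes that AHR induces most strongly gave few reads in any liver. Cyp1a1 gave 14, 9 and 11 counts in AHR Flox and 18, 13 and 10 in AHR KO. Cyp1b1 gave 27, 21 and 19 counts against 24, 32 and 24. Ahrr, the AHR repressor, gave 4 to 12 counts in each liver and was not tested. Neither Cyp1a1 nor Cyp1b1 passed (log2 change 0.09 ± 0.35 for Cyp1a1 and 0.07 ± 0.24 for Cyp1b1, adjusted p = 0.930 and 0.913). The sign of both changes turned when single libraries were left out. Tiparp, a feedback repressor of AHR, stood at 10.2, 10.4 and 9.31 CPM against 10.2, 9.56 and 10.7 CPM, with overlapping groups (0.03 ± 0.10, adjusted p = 0.928).

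Cyp1a2, the constitutive member of the Cyp1 family in hepatocytes, stood at 417, 511 and 408 CPM in AHR Flox and at 337, 272 and 297 CPM in AHR KO. The groups did not overlap, as for 21.5% of all genes tested. The difference missed the threshold in edgeR (−0.56 ± 0.13, adjusted p = 0.164) and passed in DESeq2 (adjusted p = 0.00463). The 2 floxed lines also differed. With all 12 libraries scaled together, Cyp1a2 stood at 431, 530 and 424 CPM in AHR Flox and at 780, 836 and 743 CPM in ARNT Flox. In ARNT KO it stood at 291, 265 and 780 CPM. Ugt1a9, a glucuronosyltransferase, stood at 23.2, 16.4 and 24.4 CPM against 5.74, 4.72 and 13.9 CPM (−1.39 ± 0.38, adjusted p = 0.199). Without AHR KO replicate 3, the highest of its group, Ugt1a9 passed (adjusted p = 0.0333). Nqo1, a quinone reductase that AHR and NRF2 both induce, did not pass either (adjusted p from 0.429 to 0.908 over the alternatives).

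Promoters of these genes are printed to show where the core falls near the start of Cyp1a1 and Cyp1a2. The core is in capitals and the window is the same as above.
Cyp1a1 (chr9:57697363-57697662, plus strand): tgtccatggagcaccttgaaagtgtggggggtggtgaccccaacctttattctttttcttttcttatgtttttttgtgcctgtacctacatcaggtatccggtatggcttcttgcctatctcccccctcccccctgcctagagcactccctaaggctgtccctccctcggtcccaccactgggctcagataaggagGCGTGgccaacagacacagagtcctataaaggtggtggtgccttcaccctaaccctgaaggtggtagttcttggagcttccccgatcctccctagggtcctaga
Cyp1a2 (chr9:57683606-57683905, minus strand): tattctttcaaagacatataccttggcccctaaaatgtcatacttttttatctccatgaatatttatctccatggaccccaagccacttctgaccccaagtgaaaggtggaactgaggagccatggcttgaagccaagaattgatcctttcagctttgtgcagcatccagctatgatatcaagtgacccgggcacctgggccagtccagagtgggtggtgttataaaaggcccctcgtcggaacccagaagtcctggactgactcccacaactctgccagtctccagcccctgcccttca
The Cyp1a1 window held the core 1 time and the Cyp1a2 window 0 times, which says only that these letters are not in these 300 bases. The core was in 48.3% of the 13586 promoters matched to tested genes. It was in 6 of the 13 promoters of tested AHR targets (46.2%) and in 6 of the 15 promoters of called genes (40.0%). A match is a description, not a binding site.

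Chromosome 5 held the most calls, 6 of the 16 (Alb, Afp, Fam47e, Atp10d, Pebp1 and Mmd2), which is 0.696% of its 862 tested genes against 0.119% over all. Of the genes on chromosome 5, 18.6% stood at an unadjusted p under 0.05, against 14% of all. Chromosome 7 held Sult2a4, Sult2a6 and H19, and chromosome 10 held Esr1, Socs2 and A330049N07Rik. On chromosome 7, 114 of 1029 tested genes were higher and 47 lower at an unadjusted p under 0.05. Together these were 15.6% of its tested genes, against 14% of all (7.42% higher and 6.58% lower). Within 5 Mb of Alb 58 other genes were tested, of which 2 were called (Afp and Fam47e) and 19 (32.8%) stood at an unadjusted p under 0.05. DESeq2 called 8 of the 58. The 5 with the next smallest p there, named after their values were seen, lay on both sides of 0. Cox18, a mitochondrial membrane insertase gene 0.24 Mb upstream, was at 0.75 ± 0.10, Igj at 1.74 ± 0.25 and Sowahb at 1.33 ± 0.23. Ereg, which encodes the growth factor epiregulin, was at −2.58 ± 0.39 and Stbd1, a glycogen-binding protein gene next to Fam47e, at −0.83 ± 0.14 (adjusted p from 0.0626 to 0.116). Within 5 Mb of Ahr 32 genes were tested, with 0 called by edgeR or DESeq2 and 6 (18.8%) at an unadjusted p under 0.05. Within 5 Mb of Esr1 24 were tested, with 0 called by either tool and 1 (4.17%) at an unadjusted p under 0.05. The labels do not say whether the AHR Flox mice carried the recombinase. Effects of the recombinase, of linked sequence around an introduced allele and of AHR loss cannot be told apart in this design. This holds for Alb and Esr1 as for every other call.

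**Figure D3:**
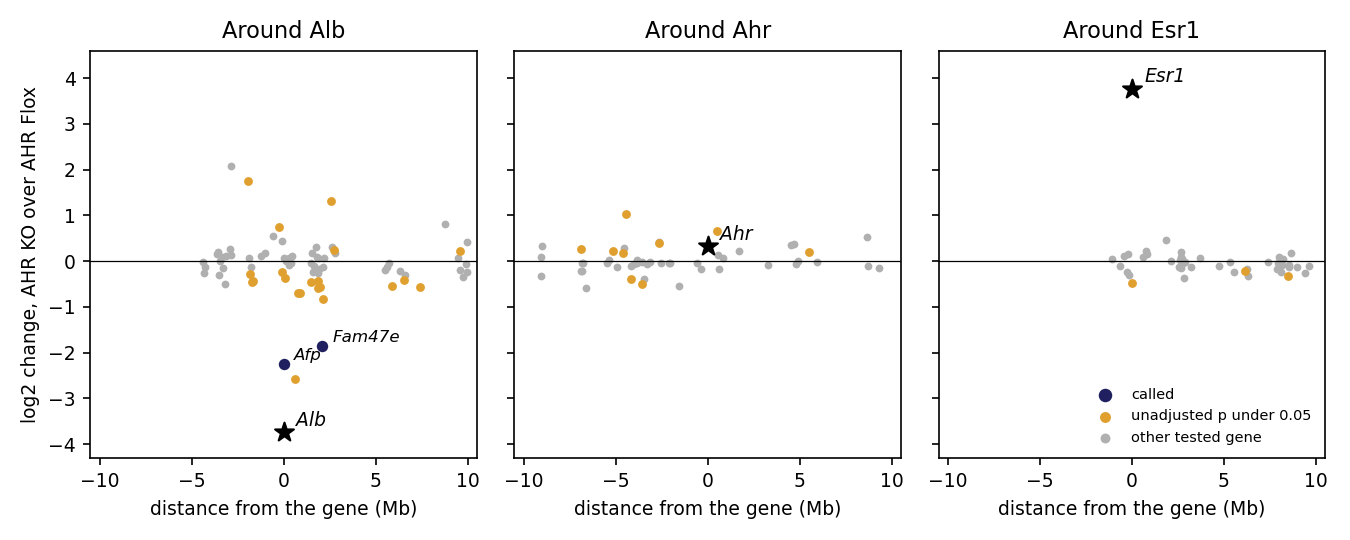
Log2 change of tested genes (AHR KO over AHR Flox) against their distance in Mb from Alb, Ahr and Esr1, each marked by a star. Around Alb the called genes Afp and Fam47e lie below 0 among 58 genes within 5 Mb, and around Ahr and Esr1 no neighbour was called.

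The ARNT libraries, scaled together with the AHR libraries, show which control levels the called genes have elsewhere. Since the genes were called on the AHR Flox livers, a return towards the middle in other controls carries no test. For 9 of the 16 genes all 3 ARNT Flox livers lay on the AHR Flox side of the midpoint between the AHR groups, and these include Esr1, Alb, Afp, Pebp1, Atp10d, Sult2a4 and Sult2a6. For 5 genes all 3 lay on the AHR KO side: A330049N07Rik, LOC624759, Mup3, Mmd2 and H19. A330049N07Rik gave at most 0.0298 CPM in the ARNT Flox livers, as low as in AHR KO. H19 stood at 90.1, 120 and 65.7 CPM in ARNT Flox, well above both AHR groups. A difference of the AHR Flox line from other controls and an effect of AHR loss cannot be told apart for these 5. Socs2 and Fam47e had 1 ARNT Flox liver on the AHR KO side. Esr1 stood at 216, 199 and 307 CPM in ARNT KO, between the AHR groups, and Pebp1 at 208, 208 and 252 CPM. Alb stood at 51926, 53685 and 5740 CPM in ARNT KO, where the third liver alone matched the AHR KO level.

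**Figure D4:**
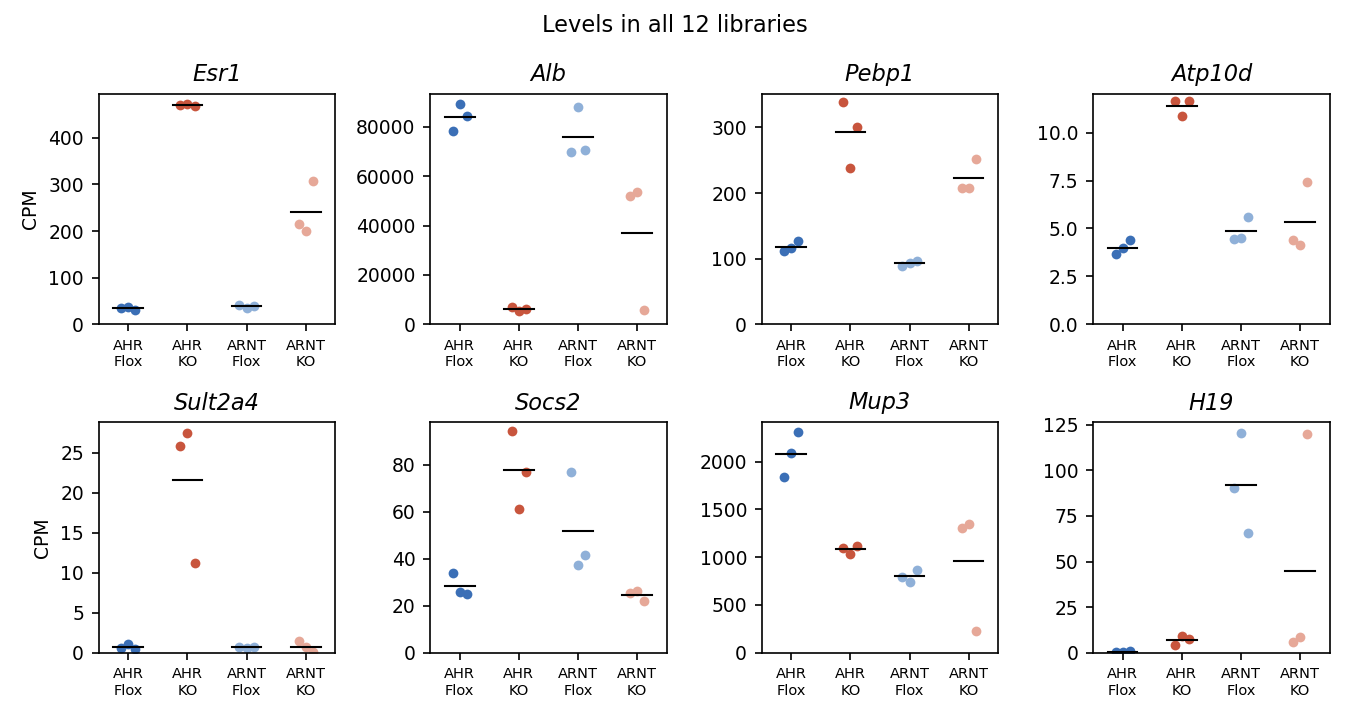
CPM of 8 called genes in all 12 livers, 3 points per group, with the group mean as a line. AHR Flox and ARNT Flox lie close together for Esr1, Pebp1 and Sult2a4, while for H19 and Mup3 the ARNT Flox livers lie away from AHR Flox.

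Among genes of drug metabolism, edgeR called no Cyp2 or Cyp3a cytochrome, and DESeq2 called 3 higher and 1 lower. Of 38 tested, 29 were above 0, 13 were higher and 1 lower at an unadjusted p under 0.05, and the median was 0.315. Here as in the lists below, the background is a median of −0.0016 with 7.42% higher and 6.58% lower at that p. Cyp2c37, a cytochrome of pericentral hepatocytes, stood at 669, 925 and 544 CPM against 1648, 1180 and 1138 CPM (0.89 ± 0.22, adjusted p = 0.189). Cyp2u1, which hydroxylates long-chain fatty acids, stood at 5.50, 4.19 and 4.58 CPM against 1.35, 2.39 and 2.85 CPM (−1.11 ± 0.26, adjusted p = 0.180). UGT and glutathione conjugation genes had a median of −0.003, with 1 higher and 1 lower of 34 at that p.

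Genes with a sex bias in mouse liver, many of them driven by the growth hormone pattern, held 3 of the calls. Of 33 tested female-biased genes 2 were called higher (Sult2a4 and Sult2a6), 10 were higher and 3 lower at an unadjusted p under 0.05, and the median was 0.529. Of 23 tested male-biased genes Mup3 was called lower, 3 were higher and 4 lower at that p, and the median was −0.250. The call of Mup3 was lost with the replicate number as a block (adjusted p = 0.0920). Of the tested male-biased genes 9 lay above 0 and 14 below. Keg1, which rose, stood at 54.6, 46.2 and 40.7 CPM against 76.3, 75.9 and 74.6 CPM (0.68 ± 0.11, adjusted p = 0.105). Susd4, an inhibitor of complement, fell like Mup3. Susd4 stood at 1.94, 1.45 and 1.79 CPM against 0.972, 0.652 and 0.840 CPM (−1.07 ± 0.23, adjusted p = 0.164). The female-biased median was 0.236 with the replicate number as a block, and the male-biased median −0.001 without AHR Flox replicate 3. In the growth hormone list, which shares this regulation, Socs2 was the only edgeR call among 18, and DESeq2 called 2 higher and 1 lower. The median was 0.326, or 0.191 without AHR KO replicate 3. Igfbp2 stood at 256, 450 and 186 CPM against 597, 687 and 1061 CPM (1.40 ± 0.34, adjusted p = 0.188). Stat5a, a transcription factor that carries the growth hormone signal, was at −0.38 ± 0.11 (adjusted p = 0.199).

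In lipid metabolism edgeR called no gene of fatty acid oxidation or synthesis. Of 45 fatty acid oxidation genes and PPAR-alpha targets 36 were above 0, 13 were higher and 0 lower at an unadjusted p under 0.05, DESeq2 called 3 higher, and the median was 0.201, or 0.107 without AHR KO replicate 3. Their mean log2 CPM was 7.53, 7.72 and 7.81 in AHR Flox and 7.97, 7.67 and 8.14 in AHR KO, so that AHR KO replicate 2 lay among the controls. Cyp4a10, the omega-hydroxylase used as a mark of PPAR-alpha activity, stood at 283, 443 and 390 CPM against 865, 484 and 1192 CPM (1.19 ± 0.31, adjusted p = 0.194). Ehhadh, the bifunctional enzyme of peroxisomal oxidation, was at 0.35 ± 0.10 (adjusted p = 0.218), and Slc27a1, a fatty acid transporter, at 0.64 ± 0.16 (adjusted p = 0.190). Of 34 synthesis genes 22 were below 0, 0 were higher and 2 lower at that p, with a median of −0.139. The median was 0.009 without AHR Flox replicate 3 and −0.424 without AHR KO replicate 2. That liver stood apart, with a mean log2 CPM of 7.30 against 6.43 and 6.65 in its group mates and 6.80 to 7.27 in AHR Flox. Gpam, which starts triglyceride synthesis, was at −0.62 ± 0.21 (adjusted p = 0.266).

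Cholesterol synthesis genes had a median of −0.185 over 27 tested, with 4 lower and 0 higher at an unadjusted p under 0.05. Their mean log2 CPM was 6.67, 6.70 and 7.02 in AHR Flox and 6.18, 7.16 and 6.24 in AHR KO, so that AHR KO replicate 2 lay above every control and its group mates below. Without AHR KO replicate 2 the median was −0.567, and without AHR KO replicate 1 it was 0.029. Hsd17b7, a sterol ketoreductase, stood at 89.8, 77.3 and 130 CPM against 57.7, 68.2 and 58.8 CPM (−0.68 ± 0.18, adjusted p = 0.196). In bile acid metabolism the median over 29 genes was −0.052, or −0.119 without AHR KO replicate 1 and −0.023 without AHR Flox replicate 2. Abcb11, the bile salt export pump, stood at 472, 544 and 535 CPM against 317, 421 and 372 CPM (−0.48 ± 0.12, adjusted p = 0.191). Abcc4, an exporter at the sinusoidal membrane, stood at 4.81, 8.04 and 4.58 CPM against 15.1, 16.4 and 11.4 CPM (1.30 ± 0.24, adjusted p = 0.142). Both had groups that did not overlap, as 21.5% of all genes tested had, and both passed in DESeq2.

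Plasma proteins other than albumin lay mostly above 0. Of 36 tested complement and coagulation genes 29 were above 0, and 12 were higher and 0 lower at an unadjusted p under 0.05. In 16 of them all AHR KO livers lay above all AHR Flox livers, against 11.3% of all genes tested, and DESeq2 called 6 higher. The median was 0.266, or 0.119 without AHR KO replicate 3. C1ra, a protease of the classical complement pathway, stood at 167, 189 and 157 CPM against 227, 225 and 260 CPM (0.47 ± 0.10, adjusted p = 0.164). F12, coagulation factor XII, stood at 576, 566 and 561 CPM against 712, 674 and 725 CPM (0.31 ± 0.09, adjusted p = 0.213). Of 34 acute phase genes 8 were higher and 0 lower at that p, with a median of 0.204, or 0.055 without AHR KO replicate 3. Fgg, a fibrinogen chain, was at 0.36 ± 0.12 (adjusted p = 0.272). Alb took a smaller share of the counts in these livers. With the 50 most abundant genes left out of the scaling, the median over all genes was −0.0027 and the same 16 genes were called. Whether the smaller share of Alb bears on the levels of these lists was not tested.

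Markers of lymphocytes and of antigen-presenting cells lay mostly above 0, with no call by edgeR. Of 30 tested lymphocyte markers 25 were above 0, 11 were higher and 2 lower at an unadjusted p under 0.05, and the median was 0.636. Their summed level was 21.3 to 29.95 CPM in AHR Flox and 36.9 to 42.0 CPM in AHR KO. Igj, the joining chain of antibodies, stood at 2.60, 1.71 and 1.99 CPM against 4.95, 7.98 and 8.22 CPM (1.74 ± 0.25, adjusted p = 0.0686). Igj also lies within 5 Mb of Alb. Cd3e, of the T cell receptor complex, stood at 0.659, 0.429 and 0.597 CPM against 1.32, 1.24 and 0.930 CPM (1.05 ± 0.26, adjusted p = 0.189). All 16 tested markers of neutrophils and dendritic cells were above 0, with 4 higher at that p and a summed level of 162 to 190 CPM against 257 to 291 CPM. DESeq2 called 3 of these, all genes of antigen presentation by MHC class II. The first, Cd74, stood at 90.7, 78.2 and 74.9 CPM against 124, 122 and 123 CPM (0.60 ± 0.09, adjusted p = 0.0885). H2-Ab1 was at 0.90 ± 0.15 (adjusted p = 0.111) and H2-Aa at 0.79 ± 0.15 (adjusted p = 0.150). In AHR Flox, Cd74, H2-Ab1 and H2-Aa averaged 81.3, 29.4 and 37.5 CPM, and in AHR KO 123, 54.9 and 65.0 CPM. These 3 genes made up most of the summed level of the list in both groups, so that sum says little about its other markers. In bulk tissue, more cells of a type and more RNA per cell cannot be told apart.

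Extracellular matrix genes had a median of −0.322 over 29 tested, with 24 below 0 and 7 lower and 0 higher at an unadjusted p under 0.05. Stellate cell and fibroblast markers had a median of −0.290 over 22, with 2 lower at that p. Col1a1, a chain of type I collagen, stood at 13.3, 6.49 and 14.7 CPM against 3.01, 7.95 and 6.69 CPM, with overlapping groups (−0.97 ± 0.39, adjusted p = 0.335). Col6a3 was at −0.56 ± 0.20 (adjusted p = 0.281). AHR KO replicate 1 held the lowest level of both, and without it the matrix median was −0.168 and the stellate median −0.127. Markers of other resident cells lay near 0, with medians of 0.010 for 29 macrophage and Kupffer cell markers, 0.019 for 25 endothelial markers and 0.003 for 19 cholangiocyte markers. Whether a shift in these cells plays a part in any call above was not tested, and the summed macrophage level overlapped, at 1034 to 1339 CPM against 1088 to 1241 CPM. Of 5 tested erythrocyte markers 3 were lower at that p. Hba-a1, Hba-a2, Hbb-b1 and Hbb-b2 are listed at 0 in every library, but Beta-s (now Hbb-bs), a hemoglobin gene among the 5, was counted. Beta-s stood at 63.7, 89.8 and 97.0 CPM against 50.4, 64.2 and 72.8 CPM, with overlapping groups (−0.42 ± 0.18, adjusted p = 0.359).

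**Figure D5:**
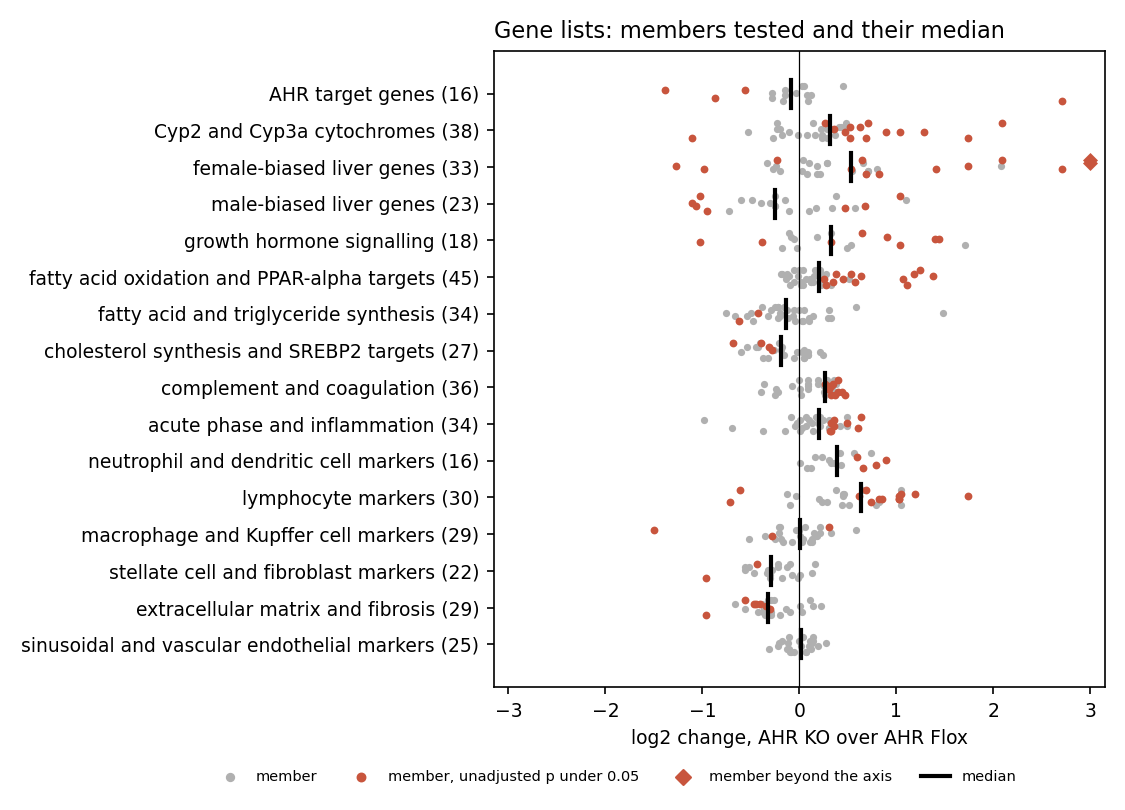
Log2 change (AHR KO over AHR Flox) of the tested members of 16 gene lists, with the number of members in brackets. Red points are members at an unadjusted p under 0.05, diamonds are Sult2a4 and Sult2a6, which lie beyond the axis, and the black bar is the median, which runs from −0.322 for the matrix list to 0.636 for the lymphocyte markers.

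Of 20 tested clock genes edgeR called 0 and DESeq2 3, all higher. At an unadjusted p under 0.05 stood 3 higher and 3 lower, 9 of the 20 lay below 0, and the median was 0.069, or −0.074 without AHR KO replicate 1. Bhlhe41, a repressor of the clock, was at −1.41 ± 0.45 with overlapping groups (adjusted p = 0.244). Nfil3, a repressor of clock output genes, stood at 14.8, 15.3 and 16.3 CPM against 29.5, 23.9 and 20.9 CPM (0.68 ± 0.13, adjusted p = 0.159). Cry1, a core repressor, stood at 9.72, 15 and 12.9 CPM against 19.5, 23.3 and 17.6 CPM (0.69 ± 0.17, adjusted p = 0.189). The hour of sampling is not stated in any source used here. Of 41 interferon response genes 34 were above 0, with 6 higher and 2 lower at an unadjusted p under 0.05 and a median of 0.131, or 0.211 without AHR Flox replicate 2. The highest ranked were Psmb8, an immunoproteasome subunit, at 0.59 ± 0.10 (adjusted p = 0.120) and Zbp1, a nucleic acid sensor, at 0.94 ± 0.17 (adjusted p = 0.135), both called by DESeq2.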

How the data were processed

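Liver poly-A RNA libraries, 1 per mouse, were compared between AHR KO and AHR Flox (3 against 3). The authors deposited raw counts per gene, whole numbers for 22537 symbols. Per the labels' protocols, Trizol was used for extraction and NEBNext Ultra II for library preparation. Tools listed in the submitters' processing notes are DESeq2 1.20.0, R 3.5.1, STAR (2.5.4b, 2.6.0c) and bcl2fastq 2.20, with the build mm10. Which counter, strand setting and annotation were used is not stated there.

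Counts of the 6 libraries were fitted with edgeR 4.0.16 in R 4.3.3: filterByExpr (minimum count 10, total 15; 13457 genes with 99.97% of the reads), TMM scaling, the quasi-likelihood F test, two-sided, with Benjamini-Hochberg adjustment over all genes tested. The common biological coefficient of variation was 14.4%. DESeq2 1.42.0 and limma-voom 3.58.1 were alternatives. CPM values use TMM-scaled totals, and log2 changes are given with the SE of the fit. Lists are described by counts and medians, without a test. Positions and promoters are from RefSeq, matched by symbol or synonym for 99.3% and 10669 of the tested genes. Libraries of a group differed beyond sampling noise (chi-square per degree of freedom 25.3 to 89.7), so none was a duplicate. Labels do not say how animals were bred or housed, so p-values measure only the spread between these samples. The edgeR, limma-voom and DESeq2 fits were tested on simulated counts, and the other steps were not.

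The comparison, the lists and the rule for naming genes were chosen with earlier results of these data known. The rule takes Ahr, Arnt, Esr1, Alb, Afp, Pebp1, Cyp1a1, Cyp1a2, Cyp1b1, Ahrr, Tiparp and Nqo1, among called genes the 15 largest rises and 15 largest falls (mean of at least 1 CPM, groups not overlapping), the 10 with the smallest p, and the 4 members of each list with the smallest p. Of 42 lists, the mitochondrially encoded genes had 0 members in the table. A library's floor is 3 counts. Some genes that the rule takes are not reported here.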

Additional observations from a re-analysis of the deposited data

How the results depend on the processing

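All called genes kept their direction under the 16 alternatives. Of their 256 values 208 stayed past the threshold and 48 did not, the cause of which was not tested. The 16 calls (8 higher, 8 lower) became 26 with no filter (17 higher) and 323 with DESeq2 (193 higher, 130 lower). They became 11 with all 12 libraries fitted (4 lower), where 7 of the 16 remained. Leaving out single libraries gave 7 to 20 calls, 4 to 12 higher and 3 to 10 lower. Other scalings moved the median gene by at most 0.0141. Over the same leave-one-out fits Cyp1a1 ran from −0.175 to 0.278, Cyp1b1 from −0.084 to 0.181 and Tiparp from −0.021 to 0.067, so their signs turned. The longer motif TNGCGTG was in 7.65% of promoters of tested genes. It was in 0% of the 13 promoters of tested AHR targets and of the 15 promoters of called genes. These sets are too small to set 0% against 7.65%. The promoter of Ahrr, which is on the target list but was not tested, held the longer motif 1 time. Same-numbered AHR Flox and AHR KO livers deviated together weakly (correlations 0.0276, 0.0647 and 0.160). AHR KO replicates 2 and 3 each correlated best with the same-numbered AHR Flox liver. AHR KO replicate 1 correlated best with AHR Flox replicate 2 (0.121). So few libraries cannot decide whether the numbers pair the samples, and the labels state no pairing. With the replicate number as a block 22 genes were called, 15 of them among the 16. Mup3 was lost (adjusted p = 0.0920). Counts of under 20 per library limit Cyp1a1 and Ahrr.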

Other observations

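The 3 AHR KO livers differed among themselves in secretory stress genes. Over 29 tested genes of the unfolded protein and integrated stress response, AHR KO replicate 3 had a mean log2 CPM of 6.62, against 5.86 to 6.16 in the other 5 livers. Creld2, an endoplasmic reticulum chaperone gene, stood at 14.8, 15.8 and 19.1 CPM in AHR Flox and at 23.1, 18 and 82.4 CPM in AHR KO (log2 change 1.31 ± 0.53, edgeR adjusted p = 0.329). The list median was 0.235, or 0.044 without AHR KO replicate 3, and edgeR and DESeq2 called 0 of its genes (3 at an unadjusted p under 0.05).

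Several single genes outside those groups had levels that did not overlap, as 21.5% of all genes tested had, but did not pass in edgeR. Those named here all passed in DESeq2 (adjusted p from 0.00064 to 0.0351). Cdkn1a, the cell cycle inhibitor p21, stood at 2.47, 3.79 and 5.93 CPM against 10.2, 9.25 and 9.63 CPM (1.26 ± 0.27, adjusted p = 0.164). Srxn1, a sulfiredoxin gene and NRF2 target, stood at 43.2, 48.3 and 55.5 CPM against 32.7, 34.9 and 35.4 CPM (−0.51 ± 0.10, adjusted p = 0.163). Kynu, which makes anthranilate in tryptophan breakdown, was at −0.36 ± 0.09 (adjusted p = 0.188), and Rbp4, the plasma carrier of retinol, at 0.36 ± 0.13 (adjusted p = 0.274). Asgr1 and Asgr2, the subunits of the asialoglycoprotein receptor, were at 0.41 ± 0.10 and 0.43 ± 0.11 (adjusted p = 0.184 and 0.191).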
